A study of Rattus norvegicus with 2 samples.

Results

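Notch receptors, their ligands and the Hes and Hey target genes were followed in cultured skeletal muscle stem cells of diabetic rats. The genes were chosen by name: the rows of the annotated table whose symbol was Notch1, Notch2, Notch3, Jag1, Jag2, Dll1, Hes1, Hey1, Hey2 or Heyl. All 10 were found, in 11 probe sets, among 18489 genes measured. RNA came from muscle-derived stem cells labelled late diabetes (1 sample) and early diabetes (1 sample), each run on 1 Affymetrix Rat Gene 1.0 ST array. Male Zucker obese fa/fa rats, whose leptin receptor is mutated and which grow obese with insulin resistance, were the source of both cell samples, and no lean or non-diabetic cells were analysed here. Both were grown on plastic with 20% fetal bovine serum, and the labels name 5.6 mM and 22 mM glucose for each without saying which was used for the array. Neither the rats' age nor how many rats or wells went into an array is given in the sources used here.

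Notch receptors are single-pass membrane proteins that are switched on by Jagged or Delta-like ligands on a neighbouring cell. Ligand binding lets ADAM proteases and then gamma-secretase cut the receptor, and the freed intracellular part enters the nucleus, binds the DNA-binding protein RBPJ and turns on genes of the Hes and Hey families, which encode basic helix-loop-helix repressors. In mouse muscle the pathway keeps satellite cells, the resident stem cells, quiescent and holds back their differentiation.

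With 1 array per group there was no spread between cultures or animals, no gene was tested, and every statement describes these 2 arrays. Values are normalized intensities, which are relative brightness units of a probe set, and differences are late minus early on the log2 scale. Comparison was limited to the 9738 genes whose brighter value was at least 261, the median intensity of genes on the 2 arrays. A background level of 112 was taken as the intensity under which 95% of the values of 1199 olfactory receptor genes lay. That such receptors are silent in these cells is an assumption. The differences of all compared genes had an SD of 0.64, and their central 95% ran from -1.14 to 1.56. Where a gene had 2 probe sets, their differences had a within-gene SD of 0.22 over 409 genes bright in both, and of 0.30 over all 760 genes with 2 probe sets, which covers probe error only.

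The sequences just before the start sites of Jag1, Hes1 and Hey2 are shown because Jag1 had the largest difference among the 10 genes and because Hes1 and Hey2 are target genes whose windows hold the RBPJ motif. They are the 250 bases before the RefSeq gene start in the rat build GRCr8, on the gene's own strand. Capitals mark TGGGAA, the core of the RBPJ motif, or its reverse complement.
Jag1, chr3:144894884-144895133, minus strand: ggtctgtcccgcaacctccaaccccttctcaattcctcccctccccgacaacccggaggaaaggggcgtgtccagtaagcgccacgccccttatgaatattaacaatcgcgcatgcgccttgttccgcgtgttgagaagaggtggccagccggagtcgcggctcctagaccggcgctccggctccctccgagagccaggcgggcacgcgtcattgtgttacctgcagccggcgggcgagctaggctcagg
Hes1, chr11:84213046-84213295, minus strand: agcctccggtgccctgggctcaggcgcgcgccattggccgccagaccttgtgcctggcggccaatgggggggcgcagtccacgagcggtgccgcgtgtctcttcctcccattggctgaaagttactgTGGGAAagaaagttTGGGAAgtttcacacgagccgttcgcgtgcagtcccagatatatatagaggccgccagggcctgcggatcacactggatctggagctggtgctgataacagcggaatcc
Hey2, chr1:28640850-28641099, plus strand: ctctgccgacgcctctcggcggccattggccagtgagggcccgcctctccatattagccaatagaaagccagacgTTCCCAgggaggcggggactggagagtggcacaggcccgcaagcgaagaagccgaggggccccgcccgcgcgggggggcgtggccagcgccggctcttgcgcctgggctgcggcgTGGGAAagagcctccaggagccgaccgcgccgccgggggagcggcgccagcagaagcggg

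RefSeq windows matched 9 of the 10 genes, all but Hey1, and Jag2 had 2 windows. On either strand, the letters TGGGAA stood in the windows of Dll1, Hes1 and Hey2, which is 3 of 9 genes, against 22.1% of 33469 rat windows of the same length. The longer form GTGGGAA, which contains TGGGAA, stood in the same 3 windows and in 5.3% of all windows. In Hes1 it covered bases 124 to 118 before the start, and a second TGGGAA covered bases 109 to 104, on the same strand. In Hey2 the long form covered bases 61 to 55, and a TGGGAA on the other strand covered bases 175 to 170. The Jag1 window held neither form. The letters CACNAG, the N-box that Hes1 binds in mouse, stood in the windows of Hes1, Notch1 and Notch3, again 3 of 9 genes, against 37.2% of all windows, where matches on opposite strands may overlap. CACGTG, the E-box form, was in 0 of the 9 genes' windows and in 5.6% of all windows. All windows of the 9 genes were richer in G and C (54.8% to 83.6%) than the median rat window (51.2%). The shares were not adjusted for this, and those of the 9 genes are per gene, not per window. A match describes letters in these windows and no binding was measured.

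Of the 10 genes, the ligand gene Jag1 was the one that stood far apart between the arrays, 4.03-fold lower in late diabetes. The receptor gene Notch2 was 1.44-fold higher in late diabetes, and the other 8 genes had lower values there, all but Hey2 by less than 1.5-fold. Only 4 of the 10, Notch2, Notch3, Jag1 and Hes1, were bright enough to be compared, and Notch3 reached that brightness in the early array alone. Among these 4, 1 gene was at least 2-fold lower, where 3.11% of all compared genes were, and 0 were at least 2-fold higher, where 5.84% were. The median difference was -0.37 over all 10 genes and -0.44 over the 4 compared, beside -0.04 over all genes and 0.06 over compared genes.

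**Figure D1:**
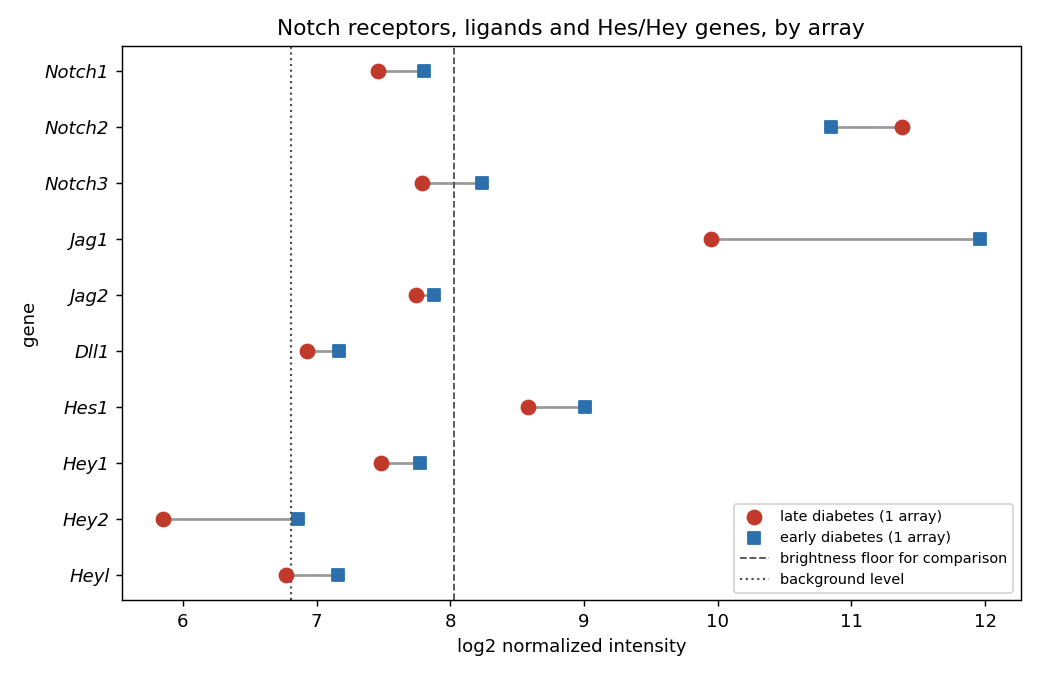
Log2 normalized intensity (x axis) of each of the 10 genes (y axis) in the late diabetes array (red circles) and the early diabetes array (blue squares), 1 array each; the dashed line is the brightness floor for comparison (log2 8.03) and the dotted line the background level (log2 6.81). The widest gap is that of Jag1, Notch2 alone has its late value to the right, and the late values of Hey2 and Heyl lie left of the background line.

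Among the ligands, Jag1, a Jagged-type ligand that cells present to their neighbours, had an intensity of 986 in late diabetes and 3976 in early diabetes. Both values lay above the floor of 261, and the late one was the lower, with a difference of -2.01. Jag1 was among the 0.729% of compared genes that were at least 4-fold lower, and 66 of the 9738 compared genes had a more negative difference. Jag1 has 1 probe set, so no second probe set was at hand to set beside it. Jag2, the other Jagged-type ligand, was at 214 in late diabetes and 236 in early diabetes, under the floor in both arrays. Its difference of -0.14 was smaller than the probe spread of 0.30. Dll1, a Delta-like ligand used by satellite cells and their progeny in mouse, was at 122 in late diabetes and 144 in early diabetes, just above the background of 112. The Dll1 difference of -0.23 also lay within the probe spread.

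Among the receptors, Notch2 had an intensity of 2659 in late diabetes and 1845 in early diabetes, a difference of 0.53 that exceeded 86.2% of compared genes. It was the single gene of the 10 with the higher value in late diabetes, and it was bright in both arrays. Notch3, a receptor of pericytes and smooth muscle that is also made by satellite cells, averaged 222 in late diabetes and 303 in early diabetes over its 2 probe sets. The probe sets gave 300 and 164 in late diabetes, against 354 and 260 in early diabetes. Their differences were -0.24 and -0.66, so the size of the Notch3 difference (-0.45 on average) depends on the probe set. Notch1, the receptor best known from muscle regeneration, was at 176 in late diabetes and 223 in early diabetes. These values lay between the background and the floor, and the difference was -0.33.

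**Figure D2:**
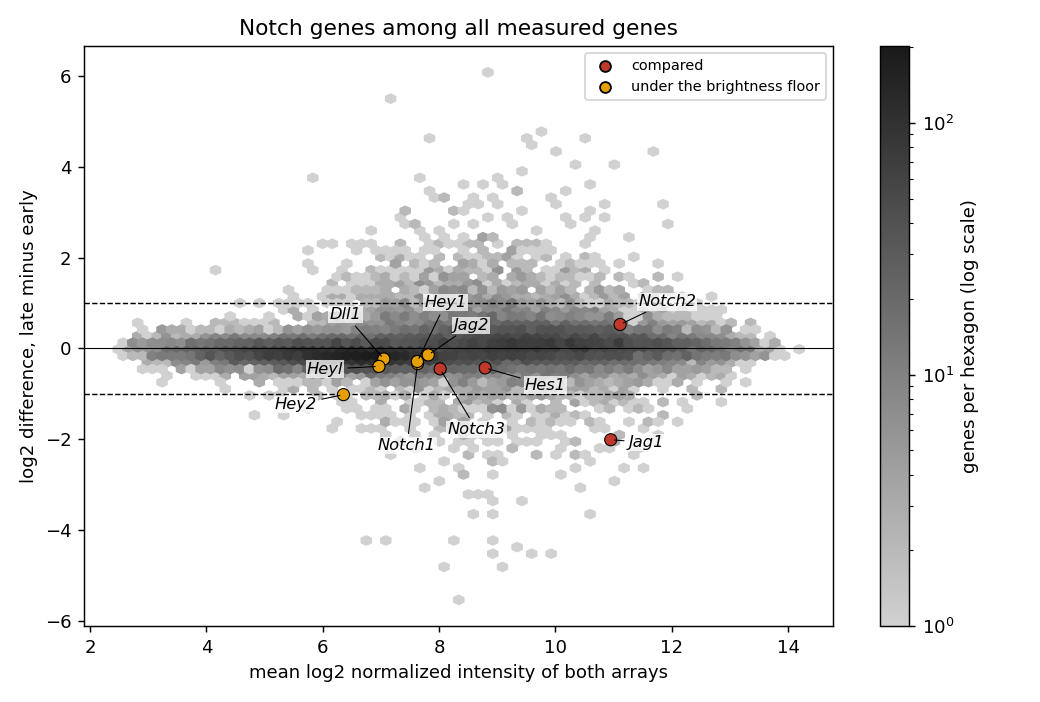
Late minus early log2 difference (y axis) against mean log2 intensity of both arrays (x axis) for all 18489 genes, as hexagons shaded by the number of genes on a log scale, with the 10 genes as points (red where compared, orange where under the brightness floor); dashed lines mark 2-fold. Jag1 lies at -2.01, below the lower 2-fold line, Notch2 lies above 0, and 6 genes sit in the dim range, where most genes lie a little below 0.

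Among the target genes, Hes1, the repressor most widely used as a readout of the pathway, was at 382 in late diabetes and 515 in early diabetes. It was bright in both arrays and 1.35-fold lower in late diabetes, a difference of -0.43 at percentile 9.6 of the compared genes. Hey1, a repressor that with Heyl keeps mouse satellite cells undifferentiated, was at 179 in late diabetes and 218 in early diabetes, under the floor in both. Heyl was at 109 in late diabetes and 143 in early diabetes, so its late value lay below background. Measured against that level Heyl was at least 1.28-fold lower. After the lowess trend was removed its difference was -0.26, within the probe spread of 0.30. Hey2, known for its part in heart and artery development, was at 57.5 in late diabetes and 116 in early diabetes. The measured ratio was 2.03-fold, but the early value was barely above background, and against that level Hey2 was at least 1.04-fold lower. Hey2 is therefore not shown to be 2-fold apart.

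The shared direction of the 10 genes was read against that of all genes, since a dim gene was usually a little lower in the late array. Of the 10 genes 9 had the lower value in late diabetes, where 56.0% of all genes did. The 6 genes under the floor were all lower, where 70.8% of all genes under the floor were, with a median difference of -0.11. After a lowess trend of the difference on brightness was removed, 49.7% of all genes were lower, and 9 of the 10 genes still were. The differences of the dim genes shrank, to -0.25 for Notch1, -0.21 for Hey1, -0.26 for Heyl, -0.10 for Dll1 and -0.08 for Jag2. These all lay within the probe spread of 0.30, so their direction says little. Hey2, whose late value lay below background, was then at -0.89. Jag1 moved from -2.01 to -2.08, Hes1 from -0.43 to -0.47 and Notch3 from -0.45 to -0.41. Cell number and RNA per cell cannot be told apart in such pooled RNA, here or below.

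**Figure D3:**
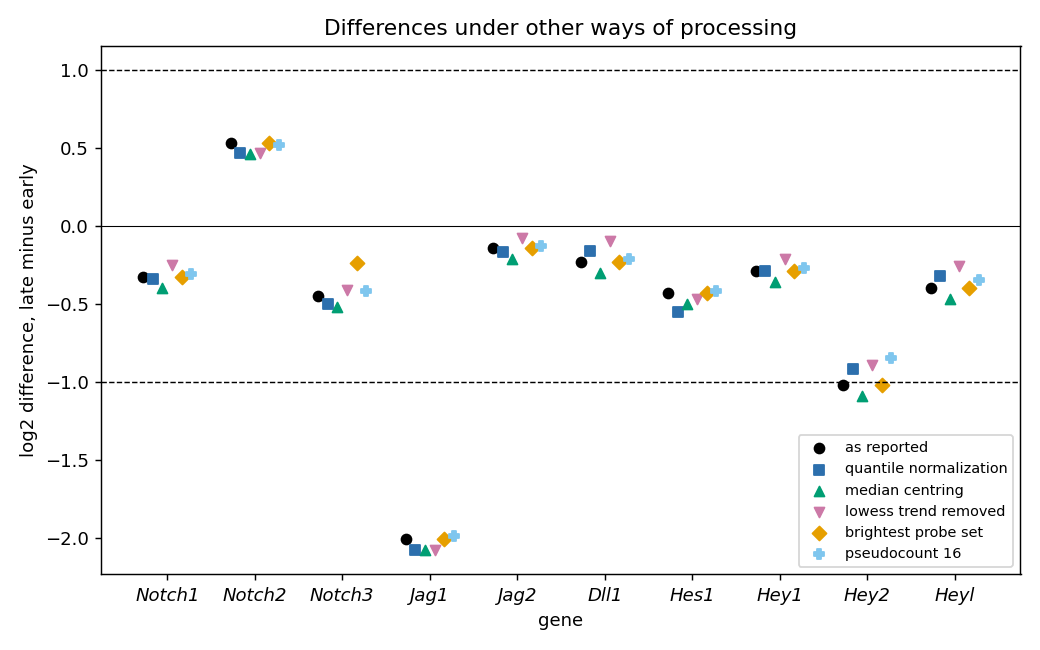
Late minus early log2 difference (y axis) of each of the 10 genes (x axis) as reported (black) and after median centring, quantile normalization, lowess detrending, use of the brightest probe set, or a pseudocount of 16; dashed lines mark 2-fold. Jag1 stayed between -2.08 and -1.99, Notch2 between 0.46 and 0.53, and Hey2 crossed the 2-fold line.

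The remaining genes of the pathway were taken from lists made for each step, chosen with earlier results of these arrays known. Of 70 listed genes 62 were measured and 54 compared. In late diabetes 1 of these was at least 2-fold higher and 2 were at least 2-fold lower, shares of the same order as the 5.84% and 3.11% of all compared genes. Their median difference was -0.10. Rbpj is not analysed here, because its probe set carries 2 symbols.

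The gene at least 2-fold higher was Lfng, a sugar transferase that lengthens O-fucose on Notch and so shifts which ligands the receptor answers to. It was at 1087 in late diabetes and 509 in early diabetes, 2.14-fold higher, and 1.99-fold higher after quantile normalization. Of the other sugar transfer genes, Pofut1, which adds the O-fucose, and Poglut1, which adds O-glucose, each had a difference of -0.10, and Mfng was dim, at 96.9 in late diabetes and 118 in early diabetes. Of the 4 measured genes of this step, Lfng was the one with the higher value in late diabetes.

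Of the 9 genes for cleavage of the receptor, 8 had the higher value in late diabetes, where 57.3% of compared genes did, and none was 2-fold apart. The median difference of this list was 0.32, and 8 of 9 were also higher after each of the 3 other scalings tried, with a median of 0.25. Furin, the protease that cuts the receptor during its maturation, was at 3445 in late diabetes and 1817 in early diabetes (1.90-fold higher). Adam10, which makes the ligand-dependent cut, was at 2035 in late diabetes and 1305 in early diabetes, and its relative Adam17 was at 2875 in late diabetes and 1950 in early diabetes. Of the gamma-secretase subunits, Psen2, a catalytic subunit, had a difference of 0.59 and reached the brightness floor in the late array alone. Ncstn, the subunit that receives substrates, was at 2403 in late diabetes and 2235 in early diabetes. The exception was Aph1b, a scaffold subunit, at 2396 in late diabetes and 3276 in early diabetes.

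**Figure D4:**
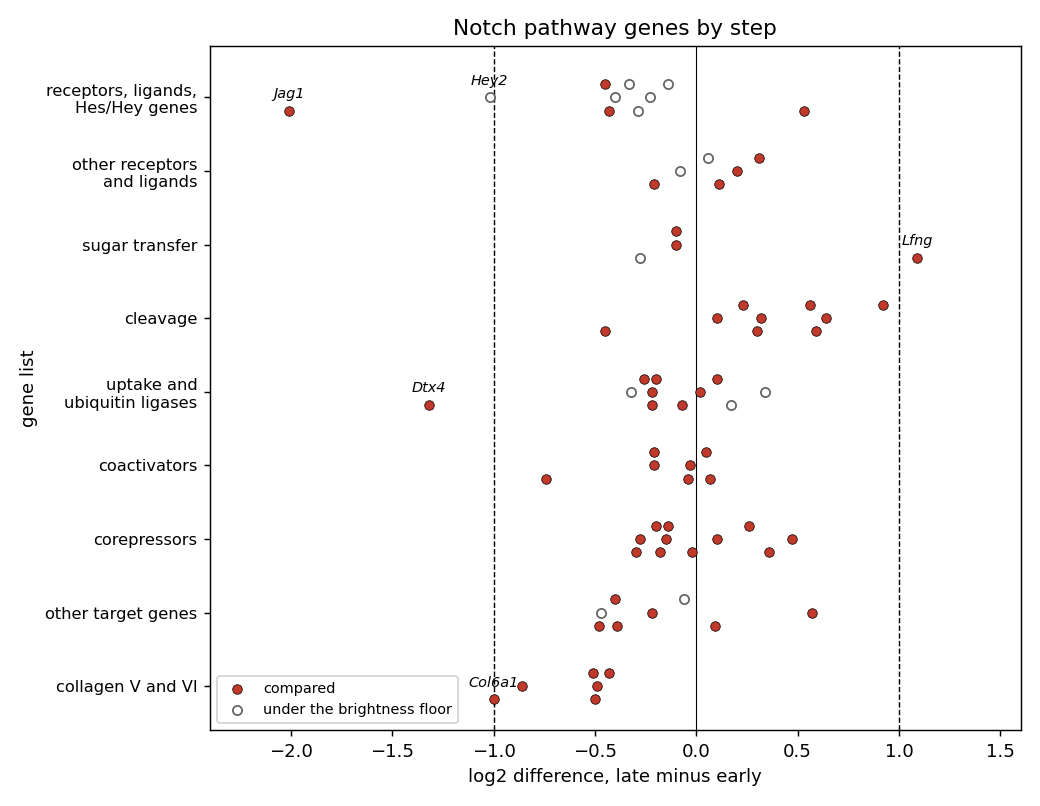
Late minus early log2 difference (x axis) of every measured gene of the pathway, by step (y axis); filled red points are compared genes, open points lie under the brightness floor, and dashed lines mark 2-fold. Jag1, Hey2, Dtx4, Col6a1 and Lfng reach the 2-fold lines, 8 of 9 cleavage genes lie right of 0, and all 6 collagen genes lie left of it.

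Among genes for ligand and receptor uptake and ubiquitin ligases, Dtx4, a Deltex-type ligase, was 2.49-fold lower, at 115 in late diabetes and 285 in early diabetes. Its late value lay only just above background, and it reached the brightness floor in the early array alone. Mib1, the ligase that lets ligands be pulled in and so activate receptors, was at 937 in late diabetes and 873 in early diabetes, and Numb, an inhibitor of Notch, was at 1754 in late diabetes and 1727 in early diabetes. These key genes of ligand and receptor traffic differed by 0.10 or less. None of the other 7 compared genes of this list was 2-fold apart.

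In the nucleus, no coactivator or corepressor was 2-fold apart. The coactivator Maml1 had a difference of -0.21 and Maml2 one of 0.05. Kat2b, an acetyltransferase listed under its older name Pcaf, was the lowest of the 7 coactivator genes, at 272 in late diabetes and 455 in early diabetes. The 11 corepressor genes ran from -0.30 (Hdac2) to 0.47 (Hdac1), with a median of -0.14.

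None of the other receptor and ligand genes was 2-fold apart. Notch4, an endothelial receptor, was at 271 in late diabetes and 219 in early diabetes, and Dll4, an endothelial ligand, was at 148 in late diabetes and 143 in early diabetes, under the floor. Dner, an atypical ligand, was at 1206 in late diabetes and 1049 in early diabetes. Of these 6 genes, 4 had the higher value in late diabetes, where 56.0% of all genes had the lower one. Among the 4 compared, 3 were higher, where 57.3% of compared genes were. Notch4 reached the floor in the late array alone, and Dll3 was below background in both arrays.

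Further genes of the Hes family lay on the same side as Hes1. Hes5 was at 299 in late diabetes and 391 in early diabetes. Hes6 was at 253 in late diabetes and 354 in early diabetes, and Hes7 was at 306 in late diabetes and 403 in early diabetes. All 9 measured Hes and Hey genes had the lower value in late diabetes, from -0.06 for Hes3 to -1.02 for Hey2. This set was not a planned list, and it leaves out Nrarp, Ccnd1 and Myc, which were listed beside the further Hes genes. The late values of Hey2 and Heyl lay below background. Of the 9, 4 were compared, where 42.6% of genes were lower, and 5 lay under the floor, where 70.8% were. Hes6 reached the floor in the early array alone. With the lowess trend removed, 8 of the 9 still had the lower value in late diabetes, and Hes3 was at 0.06. Hey1 at -0.21 and Heyl at -0.26 then lay within the probe spread of 0.30. Hes2 was below background in both arrays. Nrarp, a target that feeds back to block Notch, was at 293 in late diabetes and 341 in early diabetes. Ccnd1, a cyclin gene that Notch and many other signals act on, went the other way, at 9597 in late diabetes and 6467 in early diabetes. Myc, from the same list, was also higher in late diabetes, by 0.09.

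The genes of collagens V and VI, several of which RBPJ binds in mouse satellite cells, were all lower in late diabetes (6 of 6, median -0.51), where 42.6% of compared genes were lower. Col6a1 was at 1678 in late diabetes and 3359 in early diabetes, right at the 2-fold threshold (1.99-fold with a pseudocount of 16). Col6a3 was at 299 in late diabetes and 541 in early diabetes. Col5a1 was at 574 in late diabetes and 803 in early diabetes. Collagen genes outside this list had negative differences too, -0.72 for Col1a1 and -1.08 for Col3a1.

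The label of the cells and the genes of other cell types were checked with marker lists. Of 14 satellite cell and myoblast markers, 4 were bright enough to be compared, and they differed in direction. The other 10 lay under the floor, and Vcam1 and Myf6 were below background in both arrays. Myf5 was at 120 in late diabetes and 137 in early diabetes, and Myog was at 115 in late diabetes and 113 in early diabetes. Itga7, an integrin gene, was 2.89-fold lower, at 457 in late diabetes and 1319 in early diabetes. Sdc4, a surface proteoglycan gene, was 1.84-fold higher and Des, the desmin gene, 1.58-fold higher. Des reached the floor in the late array alone. Ncam1, an adhesion gene, was at 4248 in late diabetes and 4028 in early diabetes. Pax7, the defining satellite cell factor, was at 166 in late diabetes and 164 in early diabetes, between background and floor, and Myod1 was at 101 in late diabetes, below background, and 116 in early diabetes. Of 10 measured mural and smooth muscle markers, 9 had the lower value in late diabetes, where 56.0% of all genes did, and the exception was Des. Of the 7 compared among them 6 were lower, where 42.6% of compared genes were. The summed intensity of the 10 was 27345 in late diabetes and 39407 in early diabetes. Tagln was at 11390 in late diabetes and 13449 in early diabetes, and Cnn1 was at 6859 in late diabetes and 9108 in early diabetes. By contrast, 3 of the 10 lay under the floor. The pericyte proteoglycan gene Cspg4 had a difference of -2.38 and the adhesion gene Mcam one of -1.53, while Rgs5, a pericyte marker, was at 95.2 in late diabetes, below background, and 116 in early diabetes. Of 10 measured endothelial markers, 9 were lower in late diabetes. All but Flt1 lay under the floor, where 70.8% of genes were lower, and the exception in direction was Tek, at 198 in late diabetes and 94.0 in early diabetes, at least 1.77-fold higher. The list had a summed intensity of 1189 in late diabetes and 2445 in early diabetes. Most of that gap lay in Flt1, at 141 in late diabetes and 1323 in early diabetes, while the defining endothelial genes Vwf, Tie1 and Emcn were below background in both arrays and Cdh5 was near it, at 122 in late diabetes and 125 in early diabetes. Of 8 leukocyte markers 4 were higher and 4 lower in late diabetes, and their summed intensity was 1591 in late diabetes and 1017 in early diabetes. The 2 compared were both higher, Cd68 at least 2.49-fold and Cd14 1.69-fold, and Cd68 reached the floor in the late array alone. Csf1r, under the floor, was at 240 in late diabetes and 129 in early diabetes. Ptprc, the pan-leukocyte gene, was below background in both arrays. Of 8 fibroblast markers 5 were lower in late diabetes, where 56.0% of all genes were. Among the 5 compared 4 were lower, where 42.6% of compared genes were, and 3 of the 8 lay under the floor. Thy1 was at 8968 in late diabetes and 11105 in early diabetes, and Col1a1 was at 7397 in late diabetes and 12202 in early diabetes. Dcn, under the floor, was at least 1.36-fold higher in late diabetes. All 5 Schwann cell markers lay under the floor, and 4 were lower, where 70.8% of genes under the floor were. The exception, S100b, was at least 2.17-fold higher. The part of other cell types in the Jag1 difference was not tested.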

How the data were processed

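The deposited values are linear normalized intensities, with the same 29214 probe sets and identical values in both of the authors' tables. Per the labels, RNA came from individual culture wells. How the authors normalized the arrays, with which software and annotation build, is not given in the sources used here. From the deposited intensities, log2 was taken with no pseudocount. Probe sets naming 1 gene (20164) were used, 328 named several, 8696 named none and 26 had a damaged symbol. Probe sets of a gene were averaged on the log2 scale. The brightness floor (log2 8.03) and the background level (log2 6.81, an intensity of 112) are explained in the report. A fold is given as "at least" when the dimmer value lay below background. It is then the brighter value over the background level, with no allowance for probe error. The call threshold was 2-fold, and no test was made with 1 array per group. All 10 genes are named. From the other lists, genes past 2-fold, the genes that define a step, and the highest and lowest by difference could be named. Hes2, Hes3, Hes6, Hes7, Furin, Aph1b, Poglut1, Pofut1, Dner and Dll3 were named as well after their values were seen. So were Maml2, Ccnd1, Myc, the collagen genes and some markers. The joint set of all Hes and Hey genes was not planned either. Some items are not reported here. The genes and lists were chosen with earlier results of these data known. Alternatives were other fold thresholds, other brightness filters, quantile normalization, median centring, lowess removal (span 0.3), the brightest probe set, a pseudocount of 16 and means for medians. The number of arrays limits the precision. The calculation of calls was checked on simulated data, which gives no error rate for these arrays. Promoter windows came from RefSeq (GRCr8), whose build may differ from that of the array annotation. Python 3.11.15, numpy 2.4.6, pandas 2.3.3, statsmodels 0.14.6 and matplotlib 3.10.9 were used.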

Additional observations from a re-analysis of the deposited data

How the results depend on the processing

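Of 108 values recomputed under the alternatives, 98 stayed close to the reported value and 10 did not. Close meant within 0.22 on the log2 scale, or within 1.5 times for counts. A turn of direction was counted only for values reported as 2-fold apart, which were those of Jag1 and Hey2, and 0 turned. This says nothing about the direction of smaller differences. Some values could hardly move, since median centring shifts all genes alike and the brightest probe set leaves genes with 1 probe set unchanged. The tolerance of 0.22 exceeds the Jag2 difference of -0.14, so staying close says little about small differences. The median of the other pathway genes, reported as -0.10, stayed close in this sense but was 0.04 with the 75th percentile filter. The 10 that did not stay close were all summary values. With no brightness filter, and with the background level as the filter, 2 of the Notch genes were at least 2-fold lower in late diabetes, Hey2 joining Jag1. With the 75th percentile filter the median of the compared Notch genes was -0.74, over 2 genes, and 1 other pathway gene was at least 2-fold lower. At 1.5-fold 4 other pathway genes were higher and 4 lower, and at 3-fold 0 were higher and 0 lower. After quantile normalization 0 other pathway genes were at least 2-fold higher, and with a pseudocount of 16, 1 was at least 2-fold lower. The gene lost was Dtx4 under the 75th percentile filter, since it is too dim, Lfng (1.99-fold) after quantile normalization and Col6a1 (1.99-fold) with the pseudocount. Hey2 was admitted by the looser filters although its late value lay below background. Signal over background limits Hey2, Heyl and Dll1. No paired analysis was possible because each group holds 1 sample.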
